A study of Mus musculus with 11 samples.

Results

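The signal of 5-hydroxymethylcytosine (5hmC) was followed along Tet1, Tet2 and Tet3, the genes of the 3 mouse enzymes that make this base, while embryonic stem (ES) cells were turned into epiblast-like cells (EpiLC). The members were chosen by position: every 2 kb tile that overlaps the annotated span of 1 of the 3 genes in the mouse build GRCm38, or the 2 kb on either side of it, belongs to them. That gave 138 of the 1362779 tiles in the data, 44 each for Tet1 and Tet2 and 50 for Tet3. Of these, 135 passed the filter on the highest and lowest tiles, which removed 3 tiles of Tet3 for their high signal. Tet1 spans chr10:62804570-62887469, Tet2 chr3:133463677-133545136 and Tet3 chr6:83362373-83457208, all on the minus strand, so that transcription runs towards lower coordinates. Membership did not depend on the values of a tile, while the filter used the mean signal of each tile.

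The 11 libraries came from HMCP-seq, a kit that captures sheared genomic DNA carrying 5hmC before sequencing. DNMT_WT EpiLC at day 2 gave 3 libraries. TET_WT cells gave 3 libraries as ES cells at day 0, 2 libraries as EpiLC at day 1 (replicates 2 and 3) and 3 libraries as EpiLC at day 2. ES cells of the study were kept in 2i/Lif, a medium that holds them in the naive state. TET_WT and DNMT_WT are the wild-type parents of a triple Tet knockout line and a triple Dnmt knockout line, and carry neither set of deletions. The knockout lines were not analysed here, so no library served to check the signal at a deleted Tet gene. Each line is 1 wild-type line, and the labels do not say that replicates were separate cultures, so a p-value measures only the spread between these libraries.

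TET enzymes are dioxygenases that use iron and 2-oxoglutarate to oxidise 5-methylcytosine to 5hmC, and can carry the oxidation on to 5-formylcytosine and 5-carboxylcytosine, which the glycosylase TDG removes. Tet1 and Tet3 encode a CXXC zinc finger that binds CpG-rich DNA. The matching domain of Tet2 was split off in evolution and is now a separate gene, Cxxc4 (Idax), on the same chromosome. Tet1 and Tet2 are the forms known for naive ES cells, and Tet3 is known for oocytes, early embryos and neurons. In gene bodies 5hmC is often found in transcribed genes, while CpG-rich promoters usually hold little of it. The values here are the 5hmC signal on the Tet genes themselves, not the amounts of Tet RNA, protein or activity.

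The 3 promoters are shown because the start of transcription is the point from which all distances are counted, and because they differ in CpG content. Each sequence is the 250 bases before and 50 bases after the start in the RefSeq table of build GRCm38.p6, written 5′ to 3′ on the transcribed strand, and every CG (which reads the same on both strands) is in capitals.
Tet1 promoter, chr10:62887275-62887574, minus strand: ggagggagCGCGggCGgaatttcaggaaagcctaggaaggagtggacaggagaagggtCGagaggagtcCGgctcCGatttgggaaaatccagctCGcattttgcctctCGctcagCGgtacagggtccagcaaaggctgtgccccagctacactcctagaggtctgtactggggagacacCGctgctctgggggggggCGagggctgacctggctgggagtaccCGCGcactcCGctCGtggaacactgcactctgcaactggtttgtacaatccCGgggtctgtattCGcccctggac
Tet2 promoter, chr3:133544341-133544640, minus strand: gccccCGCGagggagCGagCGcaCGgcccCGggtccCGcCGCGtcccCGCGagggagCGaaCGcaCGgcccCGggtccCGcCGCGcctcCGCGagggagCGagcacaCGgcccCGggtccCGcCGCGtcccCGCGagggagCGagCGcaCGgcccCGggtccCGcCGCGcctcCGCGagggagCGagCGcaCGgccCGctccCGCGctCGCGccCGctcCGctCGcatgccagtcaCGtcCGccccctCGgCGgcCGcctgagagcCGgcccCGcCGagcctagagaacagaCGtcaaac
Tet3 promoter, chr6:83441629-83441928, minus strand: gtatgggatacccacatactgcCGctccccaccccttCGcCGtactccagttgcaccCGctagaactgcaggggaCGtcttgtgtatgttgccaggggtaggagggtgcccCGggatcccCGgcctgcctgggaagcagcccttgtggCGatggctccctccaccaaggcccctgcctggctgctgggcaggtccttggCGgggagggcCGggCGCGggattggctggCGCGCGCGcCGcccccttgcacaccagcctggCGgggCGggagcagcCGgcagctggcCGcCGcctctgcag
The Tet1 window holds 17 CG and 61.67% G and C, and 31.4% of the 32851 mouse promoter windows of this length hold at least as many CG. The Tet2 window holds 57 CG and 81.33% G and C, a number that only 0.152% of the windows reach. The Tet3 window holds 22 CG and 71.33% G and C, and 23.1% of the windows have as many. The median window holds 7 CG. For Tet1 and Tet2 the table's start lies 145 and 746 bases inside the upstream end of the annotated span. For Tet3 it lies 15530 bases inside it, so the Tet3 tiles upstream of the printed start still belong to the gene as annotated. A long non-coding RNA gene, Gm51805 (chr10:62865670-62910643), overlaps the 5′ part of Tet1. Another, B230319C09Rik (chr6:83441755-83448322), and the microRNA gene Mir6374 lie inside the Tet3 span. Captured DNA has no strand of origin, so signal in those tiles belongs to both genes.

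Values are log2 RPKM, that is, reads in a tile scaled by its length and by the library's total and put on a log2 scale, and a gene value is the mean of this over the tested tiles of the gene. RPKM is relative to the library, so a change in the total 5hmC of the cells cannot be seen, and in bulk DNA fewer cells with 5hmC at a site and less 5hmC per cell cannot be told apart. A call means an adjusted p under 0.05, Benjamini-Hochberg over all 20717 genes or all 1183891 tiles of a comparison, from the limma test, two-sided. Each difference is in log2 units and is given with its standard error (SE). Recovered reads numbered between 7342015 (day 1 replicate 2) and 51604034 (day 0 replicate 1), with a median of 2 to 13 reads per tile and 13.1% to 34.0% of tiles without a read. Day 0 replicate 2 stood apart from its group. In a chi-square comparison of reads per gene, the statistic over its degrees of freedom was 30.9 and 31.7 against replicates 1 and 3, where pure counting noise gives about 1. It was 4.69 between those 2 and 2.18 to 3.39 within the other groups. Over marker genes, summed RPKM of 8 fibroblast or feeder genes was 16.1 to 16.9 in DNMT_WT, 13.0 to 14.3 at day 0, 13.2 to 13.9 at day 1 and 13.9 to 14.2 at day 2. The 7 naive ES marker genes summed to 18.8 to 19.7 in DNMT_WT, 4.24 to 4.80 at day 0, 5.90 to 6.24 at day 1 and 12.5 to 13.5 at day 2. The 5 formative EpiLC marker genes summed to 10.6 to 10.9 in DNMT_WT, 5.93 to 6.34 at day 0, 7.29 to 7.73 at day 1 and 9.35 to 10.01 at day 2. Between day 2 and day 0, 7 of 7 naive, 4 of 5 formative and 1 of 8 feeder genes were called higher and 0 lower. Of all genes, 15.3% were called higher and 2.51% lower. No marker was without reads in any library, and 5hmC over a marker gene is not its expression, so these sums do not show which cells were present. Their part in the values of the Tet genes was not tested.

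Tet3 carried the most 5hmC of the 3 genes and Tet2 the least, in each of the 11 libraries. Tet3 was at 1.16 ± 0.04 in DNMT_WT at day 2, and at 1.06 ± 0.13, 0.91 ± 0.08 and 1.02 ± 0.05 log2 RPKM in TET_WT at day 0, day 1 and day 2 (mean ± SD, n = 3, 3, 2 and 3). Tet1 was at 0.92 ± 0.02 in DNMT_WT, and at -0.18 ± 0.16, -0.03 ± 0.10 and 0.49 ± 0.09 in TET_WT at day 0, day 1 and day 2. Tet2 was at -0.14 ± 0.26 in DNMT_WT, and at -1.73 ± 0.30, -1.34 ± 0.52 and -0.46 ± 0.10 in TET_WT at the same 3 times. Among all genes tested, Tet3 stood at the 84.4th percentile at day 2 and the 90.5th at day 0. Tet1 stood at the 69.4th percentile at day 2 and the 53.9th at day 0. Tet2 stood at the 43.3rd percentile at day 2 and the 23.4th at day 0. In every group the libraries of neighbouring genes in this order did not overlap.

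**Figure D1:**
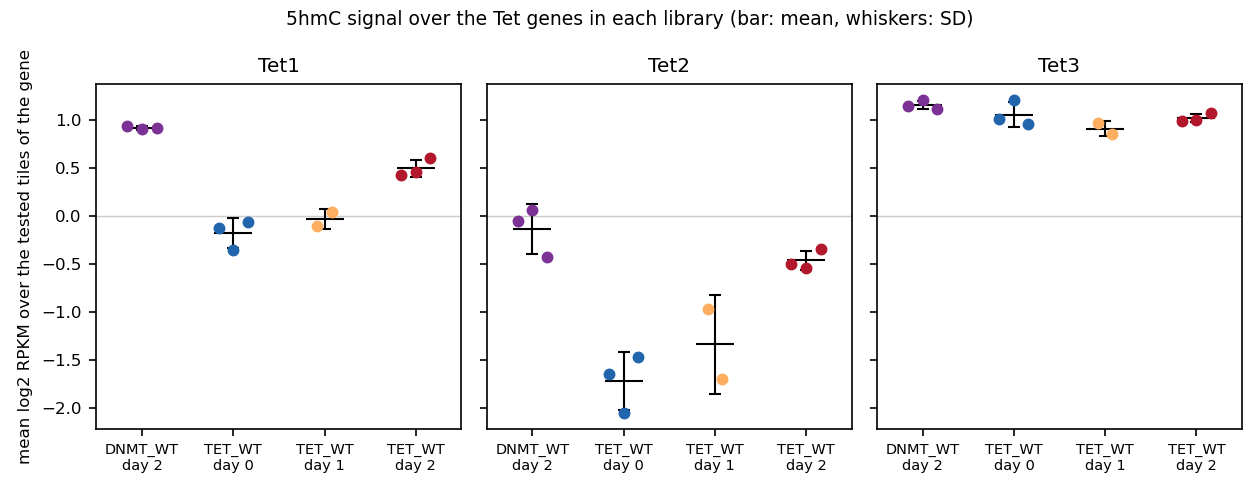
Mean log2 RPKM of 5hmC over the tested tiles of each Tet gene (vertical axis), 1 point per library, with group mean and SD, for DNMT_WT at day 2 and TET_WT at day 0, 1 and 2. Tet1 and Tet2 lie higher at day 2 than at day 0 with no overlap, while the Tet3 libraries of the 4 groups all lie between 0.85 and 1.21.

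All 3 genes were alike in where their signal peaked. The tile with the highest mean over all libraries lay towards the 3′ end in each. It was centred 74.3 kb downstream of the start in Tet1 (chr10:62812001-62814000), 77.4 kb in Tet2 (chr3:133466001-133468000) and 72.7 kb in Tet3 (chr6:83368001-83370000). That Tet3 tile is 1 of the 3 that the filter removed for their high signal, so it is not part of the Tet3 gene value. In Tet1 the 3 lowest tiles were the 3 around the start, centred between 1.68 kb upstream and 2.32 kb downstream of it, with mean log2 RPKM of -3.36 to -2.66. In Tet2 the lowest tile was centred 1.39 kb downstream of the start (mean -3.98), and a tile 2.61 kb upstream of the start was far above it (mean 0.92). Tet3 had no such trough at the printed start. Its lowest tile lay 40.7 kb downstream (mean -1.74).

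The start tiles themselves were near the detection limit in Tet1 and Tet2. The Tet1 start tile (chr10:62886001-62888000) held 11, 6 and 5 reads in the DNMT_WT libraries, and 11, 5 and 6 at day 0, 0 and 0 at day 1, and 2, 0 and 2 at day 2 in TET_WT. The Tet2 start tile (chr3:133544001-133546000) held 9, 10 and 1 reads in DNMT_WT, and 2, 2 and 6 at day 0, 0 and 0 at day 1, and 2, 9 and 6 at day 2. Neither changed by the test in any comparison, and at this depth a moderate difference was not detectable. The Tet3 start tile (chr6:83440001-83442000) had 1.09, 0.917 and 0.549 RPKM in DNMT_WT, and 0.652, 0.895 and 0.822 at day 0, 0.949 and 1.10 at day 1, and 1.08, 1.03 and 0.891 at day 2. Day 2 and day 0 overlap and differ by 0.35 (SE 0.42, limma adjusted p = 0.774), and no other comparison of this tile was called.

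**Figure D2:**
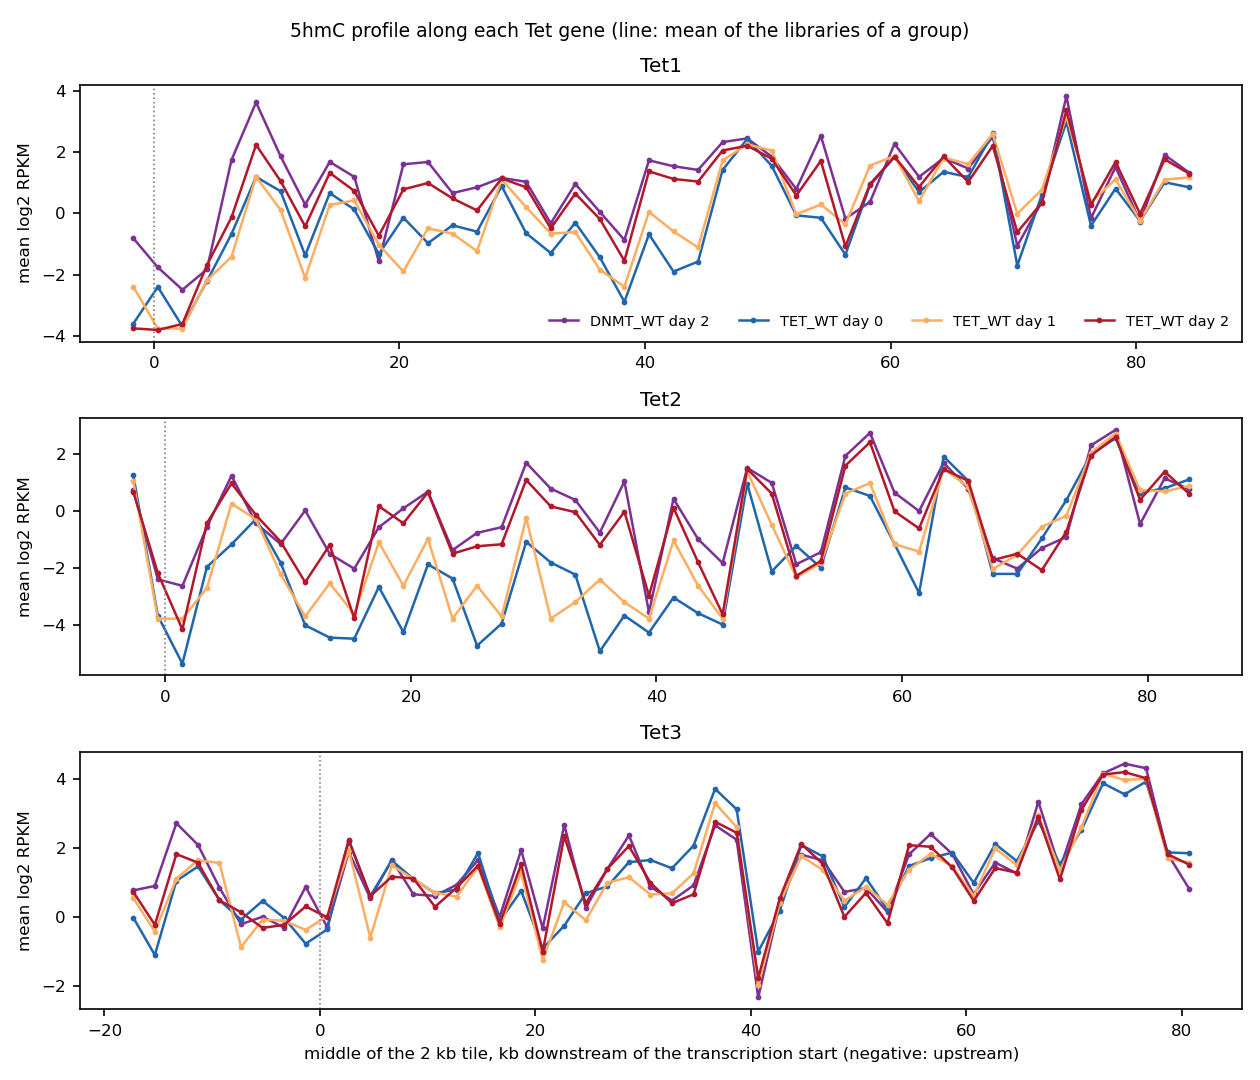
Mean log2 RPKM of each 2 kb tile (vertical axis) against the distance of its middle from the transcription start in kb (horizontal axis), with 1 line per group. Signal is lowest at the start of Tet1 and Tet2 and highest near the 3′ end of all 3 genes, and the lines of day 2 lie above those of day 0 over most of the body of Tet1 and Tet2.

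Day 2 was compared with day 0 in TET_WT to ask where 5hmC changed as the cells left the naive state. Tet1 and Tet2 gained 5hmC over their gene bodies and Tet3 as a whole did not pass the test. Tet1 had gene values of 0.43, 0.46 and 0.60 log2 RPKM in the day 2 libraries, against -0.13, -0.36 and -0.06 in the day 0 libraries. The difference was 0.68 (SE 0.11, 95% interval 0.44 to 0.92, limma adjusted p = 0.00107), a 1.60-fold rise in the geometric mean over tiles. Tet2 had -0.50, -0.54 and -0.35 at day 2, against -1.65, -2.06 and -1.47 at day 0. The difference was 1.26 (SE 0.23, interval 0.77 to 1.76, limma adjusted p = 0.00216), or 2.4-fold. Both genes separated day 2 from day 0 in all 6 libraries, as did 23.6% of all genes in the same direction. Of all genes tested, 17.8% were called in either direction, 15.3% higher and 2.51% lower. The Tet1 difference lies at the 91.8th percentile of all genes and the Tet2 difference at the 98.9th.

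Tet3 had 0.99, 1.0 and 1.08 at day 2, against 1.01, 1.21 and 0.95 at day 0, and these overlap. The difference was -0.04 (SE 0.09, interval -0.23 to 0.16, limma adjusted p = 0.870). A change of the size seen in Tet1 lies outside that interval. The 3 genes were also compared with each other within libraries. Tet1 minus Tet3 was 0.71 higher at day 2 than at day 0, Tet2 minus Tet3 was 1.30 higher and Tet2 minus Tet1 was 0.58 higher, with no overlap between the days. Each had p = 0.1 by a two-sided exact permutation test, adjusted over the 3 pairs, which is the smallest p that 3 against 3 libraries can give. With reads summed over each gene before taking the log, the lead of Tet2 over Tet1 was nearly gone (0.05, exact permutation adjusted p = 0.8), while Tet1 minus Tet3 was 0.48 higher and Tet2 minus Tet3 0.53 higher at day 2. With every library thinned to the depth of the smallest (equal depth), Tet2 minus Tet1 overlapped between the days. Day 0 replicate 3 then had -1.01 in Tet2 and -0.16 in Tet1, against -0.44 and 0.51 in day 2 replicate 1. The other pairs stayed apart.

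The size of the Tet2 gain varied with how tiles were pooled and with depth. When the reads of all tiles were summed before taking the log, so that strong tiles weigh most, Tet2 had 1.32, 1.25 and 1.26 RPKM at day 2, against 0.933, 0.709 and 0.991 at day 0. With limma-voom on those sums the difference was 0.53 (adjusted p = 0.00217), and for Tet1 it was 0.49 (adjusted p = 5.9e-05). At equal depth the gene values gave 0.91 for Tet2 (limma adjusted p = 0.00629) and 0.70 for Tet1 (limma adjusted p = 0.00148). Without day 0 replicate 2 the gene values gave 0.59 for Tet1, 1.10 for Tet2 and 0.04 for Tet3, and both calls held. That library is the lowest of Tet2 and of Tet1 and the highest of Tet3 at day 0.

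Within the genes the gain was uneven. Each span was cut into 3 equal segments by coordinate, and the segments of all genes were tested together. The middle segment of Tet1 rose by 1.21 (SE 0.13, limma adjusted p = 0.000118), at 0.88 ± 0.18 at day 2 against -0.33 ± 0.09 at day 0 (SD, n = 3 each). Its 5′ segment differed by 0.60 (limma adjusted p = 0.0752) and its 3′ segment by 0.30 (limma adjusted p = 0.328), neither of them called. In Tet2 both the 5′ segment (1.87, SE 0.34, limma adjusted p = 0.00261) and the middle segment (1.82, SE 0.31, limma adjusted p = 0.0019) rose. They stood at -1.19 ± 0.18 and -0.81 ± 0.21 at day 2, against -3.07 ± 0.42 and -2.63 ± 0.37 at day 0. The size of these 2 rises depends on the processing. Over 14 alternatives the 5′ segment of Tet2 ranged from 1.13 to 2.12 and the middle one from 1.33 to 1.98. Leaving out 1 library gave no less than 1.72 and 1.62. Both stayed called in all 14. The 3′ segment of Tet2, the one with the highest values at both days, differed by 0.33 (limma adjusted p = 0.385). No segment of Tet3 was called, with differences from -0.15 to 0.08. Of all 42041 gene segments tested, 14.2% were called and 10.9% were called higher. No test compared the segments of 1 gene with each other.

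Tile by tile, 10 of the 44 Tet1 tiles and 17 of the 44 Tet2 tiles were called higher and 0 were called lower. Of the 47 tested Tet3 tiles, 4 were called higher and 5 lower. Over all tiles tested, 5.33% were called higher and 2.68% lower. The median tile difference was 0.62 in Tet1, 1.17 in Tet2 and -0.08 in Tet3, against -0.05 over all tiles. The called tiles of Tet1 lay 6 in the middle segment and 2 in each of the others. Those of Tet2 lay 8 in the middle, 6 in the 5′ and 3 in the 3′ segment.

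**Figure D3:**
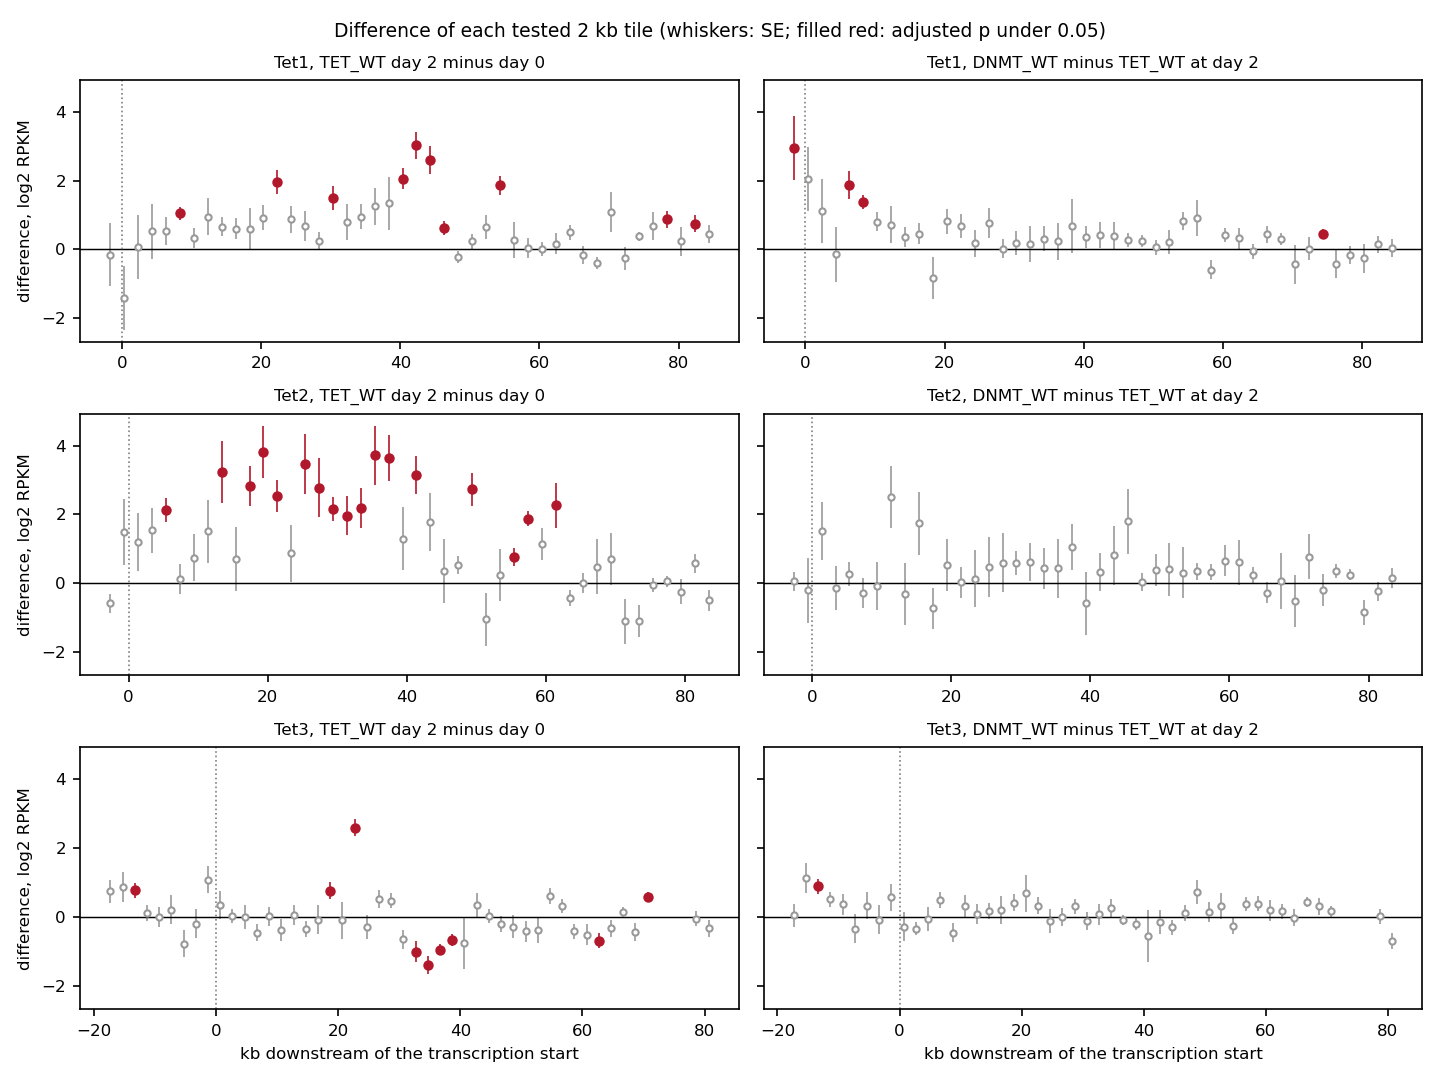
Difference in log2 RPKM of each tested tile (vertical axis, with SE) against kb downstream of the transcription start, for TET_WT day 2 minus day 0 (left) and DNMT_WT minus TET_WT at day 2 (right). Called tiles are filled red: 10, 17 and 9 at left in Tet1, Tet2 and Tet3, and 4, 0 and 1 at right.

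The largest tile gain of Tet1 was centred 42.3 kb downstream of the start (chr10:62844001-62846000). It had 2.32, 1.90 and 2.38 RPKM at day 2, against 0.292, 0.350 and 0.188 at day 0, a difference of 3.03 (SE 0.38, limma adjusted p = 6.05e-11). The tiles on either side followed it, at 44.3 kb (2.62, limma adjusted p = 1.75e-07) and 40.3 kb (2.06, limma adjusted p = 4.75e-08). These 3 and the next called tile form a run of 8 kb, chr10:62840001-62848000. Over the run, RPKM from summed reads was 2.74, 2.46 and 3.11 at day 2, against 0.933, 1.05 and 0.992 at day 0, a ratio of the means of 2.79. Day 1 lay between them at 1.74 and 1.16. Runs of at least 3 adjacent called tiles were picked out after their values were seen, so their ratios are descriptions with no test.

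Tet2 had 2 such runs. The longer covered 7 tiles between 24.4 and 38.4 kb downstream (chr3:133506001-133520000). It had 0.910, 0.944 and 0.970 RPKM at day 2, against 0.116, 0.222 and 0.215 at day 0, a ratio of 5.11. The shorter covered 3 tiles between 16.4 and 22.4 kb (chr3:133522001-133528000), with 1.30, 1.03 and 1.15 RPKM at day 2, against 0.345, 0.0519 and 0.227 at day 0, a ratio of 5.57. A single tile held a median of 13, 4 and 13 reads in the day 0 libraries. There the 7 tiles together held 36, 40 and 64 reads, and the 3 tiles held 46, 4 and 29. At day 2 the same tiles held 154, 115 and 160 reads, and 94, 54 and 81.

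The 3 largest single-tile gains of Tet2 were 3.82 at 19.4 kb (chr3:133524001-133526000), 3.72 at 35.4 kb and 3.64 at 37.4 kb. The first of these held 19, 12 and 18 reads at day 2, against 8, 0 and 1 at day 0 in deeper libraries (limma adjusted p = 4.97e-05). A tile without reads carries a fill value of 0.9 reads, so fitted differences of such tiles depend on it. At equal depth the 3 differences were 2.63 (limma adjusted p = 0.0746), 1.74 (limma adjusted p = 0.343) and 2.83 (limma adjusted p = 0.0245), and the called tile at 17.4 kb, at 2.93, was above them. Of the 44 Tet2 tiles, 0, 2 and 0 were without reads in the day 2 libraries, against 4, 9 and 2 at day 0. A called tile with more signal, centred 57.4 kb downstream (chr3:133486001-133488000), held 141, 107 and 99 reads at day 2, against 62, 39 and 61 at day 0. Its difference was 1.88 (SE 0.23, limma adjusted p = 9.47e-12), and it is named here after its values were seen.

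Tet3 had called tiles in both directions inside the gene. Its largest gain was a single tile 22.7 kb downstream of the start (chr6:83418001-83420000), which had 4.84, 5.34 and 5.09 RPKM at day 2, against 0.945, 0.934 and 0.681 at day 0. The difference was 2.59 (SE 0.25, limma adjusted p = 2.2e-17). The tile on one side of it, at 20.7 kb, was the second lowest of the gene. The other named gains were 0.77 at 18.7 kb and 0.77 at a tile 13.3 kb upstream of the printed start (chr6:83454001-83456000).

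Of the 5 losses of Tet3, 4 formed a run between 31.7 and 39.7 kb downstream (chr6:83402001-83410000). RPKM from summed reads was 4.30, 3.96 and 3.22 at day 2, against 6.67, 9.02 and 6.20 at day 0, a ratio of 0.525, with day 1 between them at 4.98 and 5.07. The largest single loss was -1.41 at 34.7 kb (SE 0.26, limma adjusted p = 1.44e-05), followed by -1.01 at 32.7 kb (SE 0.30, limma adjusted p = 0.0181). The 3 Tet3 tiles that the filter removed lie near the 3′ end (chr6:83364001-83370000), among the 0.1% of tiles with the highest signal. Fitted without the filter, the middle one differed by 0.64 (SE 0.12, limma adjusted p = 3.39e-06), at 4.19 log2 RPKM at day 2 against 3.55 at day 0. The other 2 differed by 0.10 and 0.25 and were not called.

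**Figure D4:**
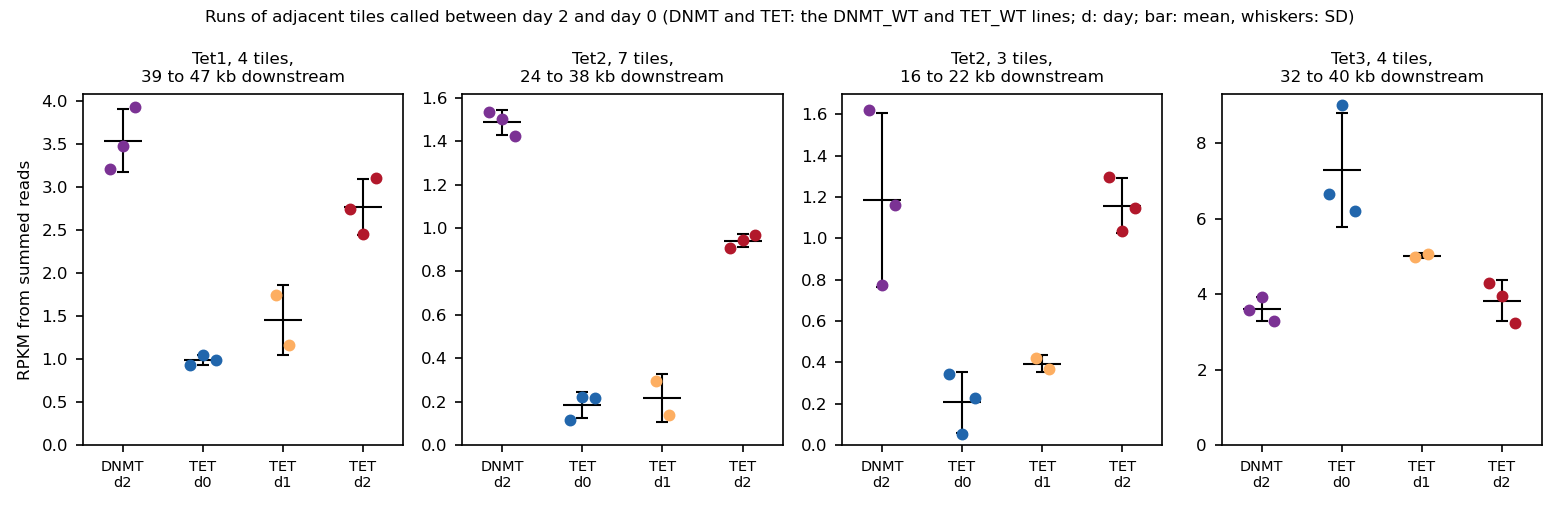
RPKM from summed reads over each run of adjacent called tiles (vertical axis, from 0), 1 point per library, with mean and SD. The runs of Tet1 and Tet2 are at 2.79, 5.11 and 5.57 times the day 0 mean at day 2 in TET_WT, and the run of Tet3 is at 0.525 times.

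Tile calls were fewer at equal depth. When every library was thinned to the depth of the smallest, 4 of the 10 called tiles of Tet1, 4 of the 17 of Tet2 and 1 of the 9 of Tet3 were still called, and no loss was. Some differences stayed: the Tet1 tile at 44.3 kb was at 2.49 (2.62 at full depth) and the Tet3 tile at 36.7 kb at -0.93 (-0.95). Others moved, such as the Tet3 tile at 32.7 kb, at -0.19 (-1.01). In Tet2 large gains shrank, to 0.24 (3.25) in the tile starting at chr3:133530001 and to 0.96 (3.48) in the one starting at chr3:133518001. Other Tet2 differences grew, such as that of the tile at 57.4 kb, at 2.46 (1.88). Of the 5 losses in Tet3, 2 were called with libraries centred on their median tile and 1 with chromosomes centred. Without day 0 replicate 2 the 3 genes had 30 tiles higher and 3 lower, against 31 and 5 with it. Under every alternative that was run, 4 of the 10 tiles of Tet1, 0 of the 17 of Tet2 and 1 of the 9 of Tet3 stayed called. That Tet3 tile was the one at 22.7 kb, with differences of 2.44 to 2.76. The sign of each of the 36 called tiles was the same under all alternatives.

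Day 1 was compared with day 0 to ask how early the change began. By limma no gene was called at day 1 (0 of 20717, or 0%), although 2551 had an unadjusted p under 0.05 and limma-voom called 188. Tet1 had -0.11 and 0.04 log2 RPKM at day 1, against -0.13, -0.36 and -0.06 at day 0 (difference 0.15, SE 0.12, limma adjusted p = 0.638). Tet2 had -0.97 and -1.71 at day 1, against -1.65, -2.06 and -1.47 at day 0 (0.39, SE 0.26, limma adjusted p = 0.560). Of its 2 day 1 libraries the one with the fewest reads of all was the higher. Tet3 had 0.97 and 0.85 at day 1, against 1.01, 1.21 and 0.95 (-0.15, SE 0.10, limma adjusted p = 0.583). All 3 genes overlapped between the days. No gene segment of the 3 was called either, against 0.117% of all segments.

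Of the tiles, 1 of Tet1 was called lower and 1 of Tet2 higher at day 1, against 0.409% and 0.601% of all tiles. The Tet1 tile, 20.3 kb downstream (chr10:62866001-62868000), held 0 and 12 reads at day 1, against 63, 20 and 29 at day 0 (-1.76, SE 0.41, limma adjusted p = 0.00971). The Tet2 tile, 5.39 kb downstream (chr3:133538001-133540000), had 1.27 and 1.14 RPKM at day 1, against 0.405, 0.311 and 0.705 at day 0 (1.43). Leaving out 1 library ended the Tet2 call in 10 of 11 cases and the Tet1 call in 2 of 11. Tiles without reads numbered 12 and 7 of 44 in Tet2 at day 1, against 4, 9 and 2 at day 0. In Tet1 they numbered 7 and 2 at day 1, against 1, 0 and 0 at day 0. Their part in these values was not tested.

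Day 2 was compared with day 1 for the later step. Tet1 differed by 0.53 (SE 0.12, limma adjusted p = 0.0169) and Tet2 by 0.87 (SE 0.26, limma adjusted p = 0.0485), while Tet3 differed by 0.11 (SE 0.10, limma adjusted p = 0.539). The libraries of day 2 all lay above those of day 1 in each of the 3 genes, as they did in 28.2% of all genes. Of all genes, 9.59% were called, 8.99% higher and 0.599% lower. The Tet2 call is fragile: it was lost without any 1 of 8 libraries, and without day 1 replicate 3 the difference was 0.51 (limma adjusted p = 0.294). Those 8 are day 0 replicate 1, day 1 replicate 3, and all day 2 libraries of both lines. The Tet1 call was lost without day 1 replicate 2 (0.45, limma adjusted p = 0.136), day 2 replicate 2 (0.55, limma adjusted p = 0.0504) or day 2 replicate 3 (0.47, limma adjusted p = 0.0758).

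In the same comparison 8 tiles of Tet1, 6 of Tet2 and 2 of Tet3 were called higher and 0 lower, against 2.41% and 0.551% of all tiles. The largest gains of Tet1 were 2.68 at the tile with few day 1 reads, 20.3 kb downstream, then 2.15 at 44.3 kb and 1.72 at 42.3 kb. These sizes turn on the 2 day 1 libraries. The tile at 44.3 kb had 1.27 and 0.169 RPKM at day 1, and without day 1 replicate 3 its difference was 0.70 (limma adjusted p = 0.495). The tile at 20.3 kb differed by 1.77 without day 1 replicate 2 and by 3.60 without replicate 3, and was called in both. In Tet2 they were 3.93 at 31.4 kb, 3.17 at 37.4 kb and 3.15 at 33.4 kb, all inside the 7-tile run. The first of these (chr3:133512001-133514000) held 26, 18 and 30 reads at day 2, against 0 and 0 at day 1. The tile at 37.4 kb differed by 1.64 without day 1 replicate 3 (limma adjusted p = 0.32) and by 4.70 without replicate 2. In Tet3 the tile at 22.7 kb gained 1.91, with 4.84, 5.34 and 5.09 RPKM at day 2, against 1.11 and 1.65 at day 1. The other called Tet3 tile, at 28.7 kb, differed by 0.90, and by 0.47 without day 1 replicate 3 (limma adjusted p = 0.479). None of the 16 called tiles was called at equal depth or without a variance trend. By segment, the middle one of Tet1 (0.85, limma adjusted p = 0.00616), the 5′ one of Tet1 (0.99, limma adjusted p = 0.0258) and the middle one of Tet2 (1.40, limma adjusted p = 0.0335) were called higher, as were 5.05% of all segments, with 5.79% called in either direction. Leaving out 1 library moved the 5′ segment of Tet1 between 0.60 (without day 1 replicate 2) and 1.38 (without day 1 replicate 3), and 4 of 11 such fits lost the call: those without day 1 replicate 2 or any 1 TET_WT day 2 library. The middle segment of Tet2 moved between 0.88 (without day 1 replicate 3) and 1.91 (without day 1 replicate 2), and 7 of 11 lost it: those without day 1 replicate 3 or any 1 day 2 library of either line. The middle segment of Tet1 stayed called in all 11.

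DNMT_WT was compared with TET_WT at day 2, a comparison of 2 wild-type lines at the same stage, with 1 line on each side. The line cannot be told apart from any other difference between the cultures. Tet1 was the only member called: it had 0.94, 0.91 and 0.91 log2 RPKM in DNMT_WT, against 0.43, 0.46 and 0.60 in TET_WT. The difference was 0.42 (SE 0.11, limma adjusted p = 0.0182), or 1.34-fold. Tet2 differed by 0.33 (SE 0.23, interval -0.17 to 0.82, limma adjusted p = 0.364), and its libraries overlap. Tet3 differed by 0.13 (SE 0.09, interval -0.06 to 0.33, limma adjusted p = 0.349). Of all genes 19% were called, 14.9% higher and 4.07% lower. With libraries centred on their median tile, which adds 0.21 to every gene's difference, Tet1 differed by 0.64 (limma adjusted p = 0.0314). Among all genes called, 78.5% were higher in DNMT_WT, and that share was 92.8% with median centring and 95.6% with chromosomes centred. In Tet1 and Tet3 the libraries of DNMT_WT all lay above those of TET_WT, as they did in 32.8% of all genes. The Tet1 call was lost without any 1 of 5 of the 6 libraries compared, with limma adjusted p of 0.053 to 0.0815. The library whose removal kept it was TET_WT replicate 3.

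Of the 4 Tet1 tiles called higher in DNMT_WT, 3 lay within 10 kb of the start. No Tet1 tile was called lower (0 of 44), 1 tile of Tet3 was called higher and 0 of Tet2, against 1% higher and 2.24% lower over all tiles. The tile 8.32 kb downstream of the start (chr10:62878001-62880000) had 12.7, 11.4 and 13.1 RPKM in DNMT_WT, against 4.59, 5.40 and 4.29 in TET_WT. Its difference was 1.39 (SE 0.20, limma adjusted p = 3.3e-08). The next tile, at 6.32 kb (chr10:62880001-62882000), had 3.59, 2.54 and 4.15 RPKM, against 0.827, 1.15 and 0.806 (1.88, SE 0.41, limma adjusted p = 0.00093). A tile 1.68 kb upstream of the start held 21, 6 and 19 reads in DNMT_WT, against 1, 1 and 4 in TET_WT (2.95, SE 0.92, limma adjusted p = 0.0498). That call held in 5 of 11 fits that left out 1 library, and at equal depth the difference was 1.11 (limma adjusted p = 0.744). All 3 tiles lie inside Gm51805. The highest tile of Tet1, at 74.3 kb, differed by 0.46 (limma adjusted p = 0.0327). No gene segment was called, against 7.29% of all segments. The 5′ segment of Tet1 came nearest (0.73, SE 0.21, limma adjusted p = 0.0515).

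In Tet3 the called tile was again the one 13.3 kb upstream of the printed start, with 7.04, 6.49 and 6.19 RPKM in DNMT_WT, against 3.56, 4.14 and 3.01 in TET_WT at day 2 (0.89, SE 0.22, limma adjusted p = 0.00571). At equal depth none of these 5 tiles was called. The difference was then 1.34 at 8.32 kb (limma adjusted p = 0.0686), 0.47 at 74.3 kb and 0.88 in this Tet3 tile, about as at full depth, and 1.31 at 6.32 kb. The regions of the runs had the following levels in DNMT_WT. The Tet1 run had 3.54 ± 0.37 RPKM in DNMT_WT, against 2.77 ± 0.33 in TET_WT at day 2 (SD, n = 3 each). The longer Tet2 run had 1.49 ± 0.06 RPKM, against 0.941 ± 0.030, and the shorter had 1.19 ± 0.42, against 1.16 ± 0.13. The Tet3 run had 3.60 ± 0.32, against 3.83 ± 0.55. The day 0 state of DNMT_WT was not analysed here, so its own change over time is not known.

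The nearest tested protein-coding genes did not pass the test between day 2 and day 0. Around Tet1, Ccar1 differed by 0.01 and Slc25a16 by 0.11. Below Tet2, Ppa2 differed by -0.07. Around Tet3, Bola3 differed by -0.07 and Dguok by -0.12. Cxxc4, the nearest on the other side of Tet2 at a distance of 691 kb, differed by 0.60 with a wide error (SE 0.46, limma adjusted p = 0.448). Between the lines, Ccar1 (0.41, limma adjusted p = 0.0650) and Slc25a16 (0.43, limma adjusted p = 0.0782) differed by about as much as Tet1 without a call.

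Genes that act with the TET enzymes were listed by role, 27 in all, and all were measured. Between day 2 and day 0, 7 were called higher and 0 lower, with a median difference of 0.22 against 0.09 over all genes, and 15.3% of all genes were called higher. Among 10 partners and regulators, 3 rose. Gadd45b, a stress-response gene linked to active demethylation, rose by 2.39 (SE 0.37, limma adjusted p = 0.000807), the largest difference of the list. Prdm14, a naive pluripotency factor that represses Dnmt3 genes, rose by 1.34 (SE 0.12, limma adjusted p = 1.57e-05). Cxxc5, a CXXC zinc finger gene related to Cxxc4, rose by 1.16 (SE 0.14, limma adjusted p = 0.000164). Among 10 genes of base excision, 3 rose: Smug1 by 1.01 and Ung by 0.93, which encode uracil-DNA glycosylases, and Neil1 by 0.49, which encodes a glycosylase for oxidised bases. Tdg differed by 0.22 (limma adjusted p = 0.287). Of 3 genes of cofactor supply only Idh2, which encodes a mitochondrial enzyme that makes 2-oxoglutarate, was called (0.42). None of 4 reader genes was called. The most negative difference was that of Mbd4, a thymine glycosylase gene (-0.42, limma adjusted p = 0.237).

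**Figure D5:**
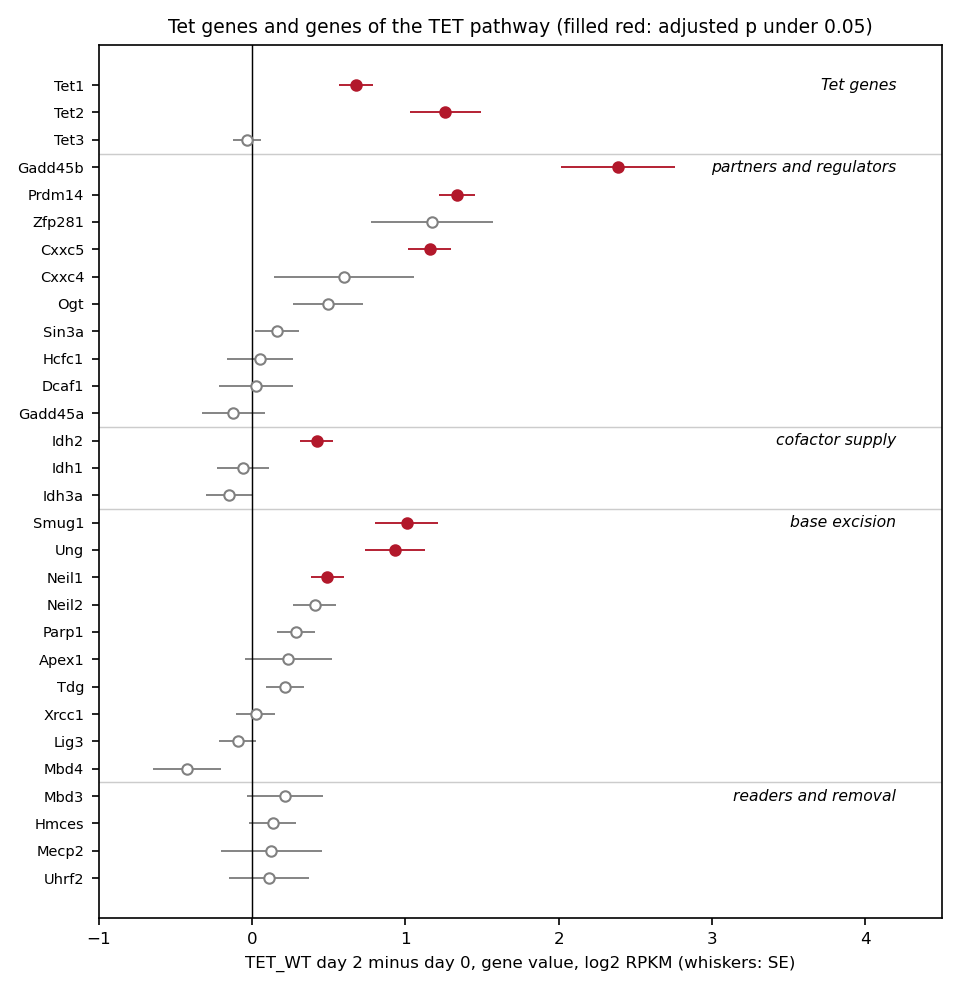
TET_WT day 2 minus day 0 in gene value (horizontal axis, log2 RPKM, with SE) for the 3 Tet genes and the 27 listed genes, grouped by role. Filled red points are the 2 Tet genes and 7 listed genes called, all of them higher at day 2.

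At day 1 none of the 27 was called against day 0. Between day 2 and day 1, 6 were called higher and 0 lower, namely Smug1, Neil1, Idh2, Cxxc5, Prdm14 and Gadd45b. Of all genes, 8.99% were called higher in that comparison and 0.599% lower. Between DNMT_WT and TET_WT at day 2, 14.9% of all genes were called higher and 4.07% lower. Of the 27, 5 were called higher and 0 lower. These were Ung (0.75), the DNA ligase gene Lig3 (0.71), Idh2 (0.44), Prdm14 (0.42) and Mbd3 (0.79), which encodes a subunit of the NuRD complex.

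Across the 11 libraries Tet1 and Tet2 had gene values that varied together (Pearson r = 0.93), and Tet3 was less like Tet1 (0.42) or Tet2 (0.37). Among 11684 genes with at least 10 tested tiles, those most like Tet1 were Dgkg (0.988), Igf2bp2 (0.987) and Ikzf4 (0.986). Those most like Tet2 were Errfi1 (0.991), Ttc39b (0.980) and B4galt6 (0.978), and those most like Tet3 were Alox12 (0.928), Pdlim4 (0.922) and Bmp7 (0.915). These correlations describe 11 libraries that share lines, days and depth, and carry no test.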

How the data were processed

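The deposited values are log2 RPKM computed by the authors for 2 kb tiles. Bowtie2 2.4.1, cutadapt 2.3 and Trim Galore 0.6.5 appear, with the build GRCm38, in the submitters' processing notes; the counting tool is not given in the sources used here. Values of each library were whole multiples of 1 read within 0.1% (100% of values, rounded), and tiles without reads held 0.9 reads. Recovered reads were 2.32 times the RPKM denominator, for an unknown reason, which shifts a library's values alike.

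Of the autosomal and X tiles, the 10% lowest and 0.1% highest by mean were dropped, which left 1183891. Genes needed 3 tested tiles, segments 2. Spans came from RefSeq and were extended by 2 kb. limma 3.58.1 in R 4.3.3 (with version 1.17.8 of data.table) used lmFit and eBayes with a variance trend on all 11 libraries, without a replicate block. limma-voom on summed recovered reads called 6898 genes between day 2 and day 0, against 3689. Fits were also run on simulated data. That simulation gave all libraries the same spread, so it cannot speak for an outlying library such as day 0 replicate 2. Figures used matplotlib 3.10.9. There were 0 unused sample columns.

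The members, lists and tests were chosen with earlier results of these data known. Named were all called genes of the pathway list with its largest difference in each direction, nearest neighbours, and the 3 most correlated genes. Named tiles were the start tile, the highest tile, and per comparison the 3 largest positive and 2 largest negative called differences.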

Additional observations from a re-analysis of the deposited data

How the results depend on the processing

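The gene-level calls of Tet1 and Tet2 between day 2 and day 0 were kept under all 22 alternatives (0.49 to 0.77 and 0.53 to 1.39), and Tet3 was not called in any. No result turned its direction while called. Between day 2 and day 1, Tet2 lost its call with limma-voom (0.51), no variance trend (0.87), median centring (0.91), equal depth (0.75) and the replicate block (0.85), and Tet1 with median centring (0.56) and chromosome centring (0.75). Between the lines, Tet1 lost its call when low-signal tiles below the median were dropped (0.31) and at equal depth (0.31). The causes were not tested.

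Centring moved the median difference of all genes by over 0.1 between the lines (median centring 0.21, chromosome centring 0.19) and, with chromosome centring, between day 2 and day 1 (0.15) and day 1 and day 0 (-0.11). Quantile normalization moved it by 0.13 between day 2 and day 1 and -0.12 between day 1 and day 0.

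With reads summed before the log, the gain of Tet2 over Tet1 between day 2 and day 0 was 0.05, against 0.58.

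Tile counts moved most. Between day 2 and day 0, 9 tiles were called higher and 0 lower with no variance trend and also at equal depth, and 2 and 1 lower with median and chromosome centring. Between day 1 and day 0, 0 higher and 0 lower were called with no variance trend, median centring, chromosome centring, equal depth and only the groups compared, and 3 lower with quantile normalization. Between day 2 and day 1, 0 higher were called with no variance trend and equal depth and 10 with median centring, and 1 lower with no tile filter and the replicate block, and 2 lower with quantile normalization and only the groups compared. Between the lines, 0 higher were called with no variance trend and equal depth, 3 with quantile normalization and chromosome centring, and 13 higher with 1 lower with only the groups compared. Called segments between day 2 and day 1 numbered 0 with median centring, and 1 at equal depth and with the replicate block; between the lines median centring gave 1.

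Leaving out 1 library gave, between day 2 and day 1, 0.45 to 0.60 for Tet1 and 0.51 to 1.24 for Tet2, and 0.39 to 0.48 for Tet1 between the lines. Called tiles ranged from 2 to 5 lower between day 2 and day 0, 0 to 5 higher and 0 to 4 lower between day 1 and day 0, 0 to 2 lower between day 2 and day 1, and 2 to 7 higher and 0 to 1 lower between the lines. Called segments ranged from 1 to 4 between day 2 and day 1 and 0 to 1 between the lines.

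Equal replicate numbers did not pair the libraries: the correlation of their deviations was -0.05 to 0.07. The replicate block changed no gene-level call other than that of Tet2 between day 2 and day 1 (limma adjusted p = 0.0908). The libraries had a median of 2 to 13 reads per tile. At equal depth single tiles lost their calls both where the difference itself was about the same and where it shrank. The part of depth in the tile calls was not tested.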
